A study of Mus musculus with 6 samples.

Results

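The genes described here are the 7 inhibitors of cyclin-dependent kinases (CDKs) of the CIP and INK4 families, Cdkn1a, Cdkn1b, Cdkn1c, Cdkn2a, Cdkn2b, Cdkn2c and Cdkn2d. They were chosen by gene symbol, and every probe set that the platform annotation assigns to exactly 1 of them was kept. All 7 were found among the 18193 genes named this way, with 9 of the 45037 probe sets on the array: 2 each for Cdkn1a and Cdkn1b and 1 for each of the other genes. All 9 were tested and none was removed by a filter on level.

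The cells were long-term haematopoietic stem cells (LT-HSCs), sorted from bone marrow by the phenotype Lin- Sca1+ CD150+ CD48-. The dKO mice were MxCre c-myc f2 N-myc f2, carrying both floxed Myc genes and a Cre recombinase under the interferon-responsive Mx promoter. The control mice carried the floxed genes without MxCre (1 control label spells the second allele M-Myc). All mice were 8 weeks old, had a mixed genetic background, received 2 daily injections of pI-pC (a synthetic double-stranded RNA that triggers interferon and so the recombinase) and were killed 3 days after the last. Each group had 3 arrays, each from a separate pool of 3 dKO or 2 control mice. Only the dKO mice carried the recombinase, so its presence and the loss of Myc genes cannot be told apart. Arrays without pI-pC were not part of the comparison. In sorted bulk cells, a change in the mix of cells and a change in RNA per cell cannot be told apart either.

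CDK inhibitors set the brake at the G1 phase of the cell cycle. INK4 proteins, built of ankyrin repeats, bind Cdk4 and Cdk6 and keep D cyclins from activating them, whereas CIP proteins (also called CIP/KIP) bind complexes of cyclin and CDK, above all those of Cdk2. Both keep retinoblastoma proteins active and E2F factors silent. Myc is known to repress several of these genes, among them Cdkn1a and Cdkn2b, through the partner protein Miz1 (Zbtb17), and Cdkn1c is known as a gene of quiescent stem cells. The comparison therefore bears on whether the inhibitors differ between stem cells with and without both Myc genes.

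The genes that rose were Cdkn1a, at both of its probe sets, and Cdkn2d. The promoters of these genes are shown because the probe sets that carry the finding belong to them. RefSeq promoter windows (build GRCm38.p6) were found for 6 of the 7 genes, with 9 start sites in all. Each sequence below is the plus-strand or minus-strand run of 250 bases ending just before the annotated start, written 5′ to 3′ in the direction of the gene. Capitals mark matches on either strand to any of 5 motifs: the GC box GGGCGG bound by Sp1-type factors, the E-box CACGTG bound by Myc-Max dimers, TATAA, the STAT-type site TTCNNNGAA, and a pair of CATG cores of a p53 site with 6 bases between them. No motif contains another. The last motif was added after the Cdkn1a sequence had been seen.

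Cdkn1a, upstream start, chr17:29090729-29090978, plus strand: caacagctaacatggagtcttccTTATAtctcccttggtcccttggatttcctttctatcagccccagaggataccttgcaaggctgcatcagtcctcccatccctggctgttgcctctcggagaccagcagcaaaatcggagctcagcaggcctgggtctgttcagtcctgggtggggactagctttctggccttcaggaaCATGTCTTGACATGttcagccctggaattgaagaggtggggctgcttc

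Cdkn1a, downstream start, chr17:29093519-29093768, plus strand: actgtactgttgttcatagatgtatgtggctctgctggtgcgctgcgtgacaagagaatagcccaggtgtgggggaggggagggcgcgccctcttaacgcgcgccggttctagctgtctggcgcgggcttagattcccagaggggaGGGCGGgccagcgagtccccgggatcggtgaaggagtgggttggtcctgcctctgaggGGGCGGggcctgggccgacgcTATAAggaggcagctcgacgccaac

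Cdkn2d, chr9:21291210-21291459, minus strand: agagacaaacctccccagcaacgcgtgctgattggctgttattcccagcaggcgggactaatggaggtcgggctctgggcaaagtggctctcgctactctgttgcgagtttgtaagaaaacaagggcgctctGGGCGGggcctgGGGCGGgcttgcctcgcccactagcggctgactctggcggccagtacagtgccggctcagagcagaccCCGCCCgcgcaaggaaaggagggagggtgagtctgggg

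The window before the upstream Cdkn1a start held the paired p53 cores, first base 48 bases before the start, and a reverse-strand TATAA 227 bases before it. The paired cores occurred in 0.49% of the 32851 RefSeq windows of the same length. The window before the downstream start held 2 GC boxes, at 104 and 46 bases, and TATAA at 25 bases before the start. The Cdkn2d window held 3 GC boxes. GC boxes were not particular to the genes that rose: 1 window each of Cdkn1b, Cdkn2a and Cdkn2c held 1, 2 and 3, and the Cdkn2b window held 0. GC boxes occurred in 32.7% of all windows and TATAA in 22.8%. No window of any member held the letters CACGTG or TTCNNNGAA, which occurred in 6.02% and 7.02% of all windows. Outside these windows the genes were not searched, and a match is a run of letters, not a measured binding site.

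Values are deposited log2 RMA expression values, so 1 unit is a 2-fold difference, and changes are dKO minus control. They come from limma fitted to all 45037 probe sets, with Benjamini-Hochberg adjusted p-values over all of them and a threshold of 0.05. Array medians were 5.90 to 5.97, arrays of the same group correlated at 0.974 to 0.981 over all probe sets and arrays of different groups at 0.956 to 0.969, and the 3 negative control probe sets read 2.13 to 3.92. Both targeted genes were lower in dKO cells: Myc read 10.40, 10.57 and 10.12 on control arrays and 7.28, 7.77 and 7.24 on dKO arrays, and Mycn (1417155_at) 10.80, 10.87 and 10.76 against 3.40, 3.81 and 3.17. The other Mycn probe sets differed from this one: 1425922_a_at fell from 8.94 to 7.33 (log2 change -1.61, limma adjusted p = 0.00938), and 1425923_at, dim in both groups, changed by -0.08 (adjusted p = 0.858). Which part of the gene each reads was not analysed here. The Gapdh 3' probe set exceeded the 5' one, a measure of RNA integrity, by 2.12 to 2.36 on control arrays and by 2.39 to 2.47 on dKO arrays. For beta-actin the same difference was 0.10 to 0.23 on control and 0.20 to 0.21 on dKO arrays, so there the groups overlapped. The part of RNA integrity in the results was not tested.

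Of the 9 CDK inhibitor probe sets, 3 were higher in dKO cells past the threshold (limma) and 0 were lower. Across the array, 3.57% of probe sets were called higher and 3.41% lower. At an unadjusted p under 0.05 the member counts were 5 and 1, against 10.4% and 11.3% of all probe sets. Control and dKO values did not overlap at 5 member probe sets that were higher in dKO cells and at 1 that was lower, where 13.4% and 14% of all probe sets showed such separation. The median log2 change was 0.41 over the 9 probe sets and -0.01 over all probe sets. Among the 5 CIP probe sets, the Cdkn1a pair rose by about 3 units and the other 3 were lower by 0.34 to 0.45 without passing the test. Among the 4 INK4 probe sets, 3 had higher dKO values and 1 lower, and only Cdkn2d passed.

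**Figure D1:**
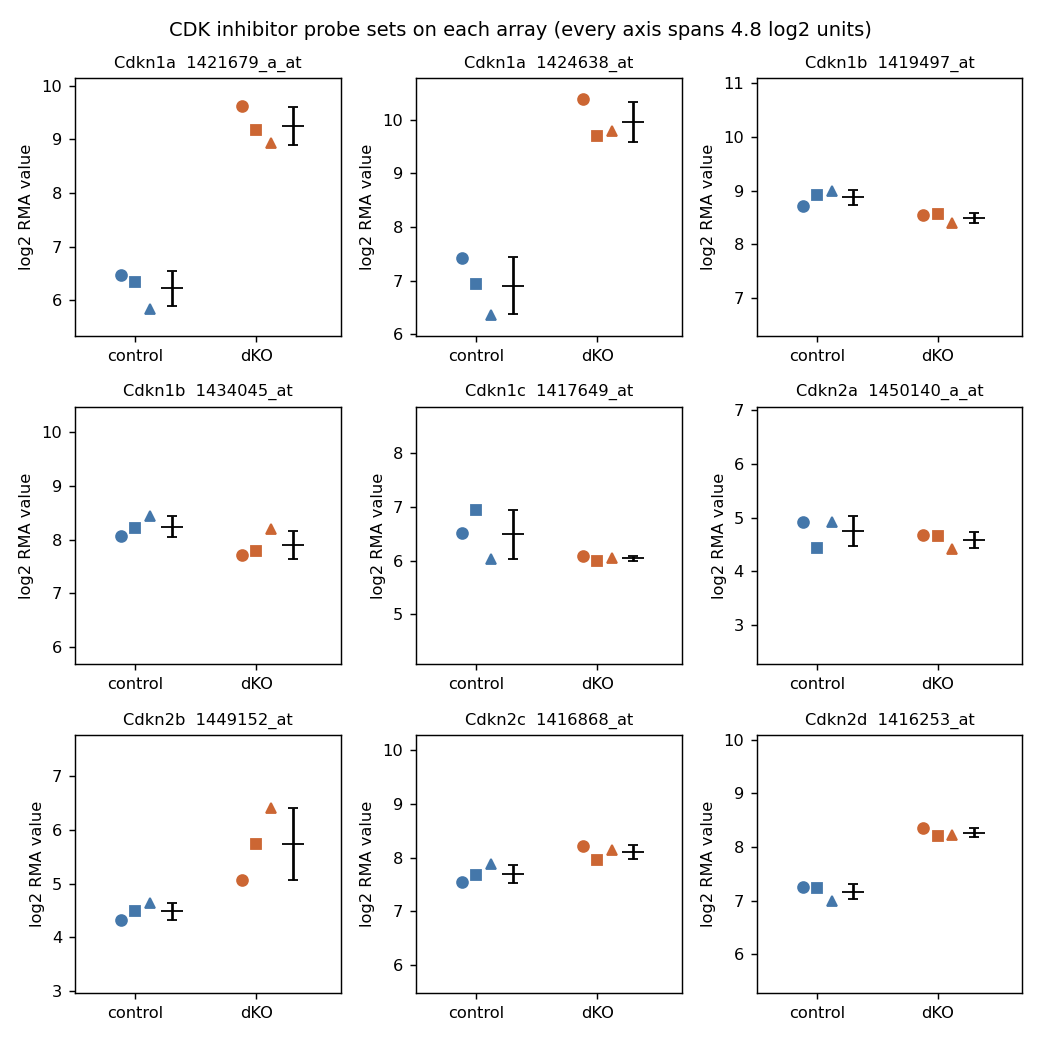
Log2 RMA value (vertical axis, every panel spanning the same number of units) of each CDK inhibitor probe set on each of 3 control (blue) and 3 dKO (orange) arrays; circles, squares and triangles are replicates 1, 2 and 3, and the black bar is the mean with its SD. Both Cdkn1a panels and the Cdkn2d panel show separated groups, the dKO values of Cdkn2b spread from 5.07 to 6.41, and the Cdkn1c groups overlap.

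Cdkn1a encodes p21, an inhibitor of Cdk2 and other cyclin-CDK complexes that is best known as a target of p53. Its probe set 1424638_at read 7.42, 6.94 and 6.35 on the control arrays and 10.38, 9.70 and 9.78 on the dKO arrays. Every dKO array lay at least 2.28 units above every control array. The means were 6.91 ± 0.53 and 9.95 ± 0.37 (SD, n = 3 per group), an 8.27-fold rise with a 95% interval of 5.04 to 13.6 (log2 change 3.05 ± 0.30 SE, limma adjusted p = 0.00383). The other probe set, 1421679_a_at, moved by nearly the same amount. It read 6.47, 6.35 and 5.84 on control arrays and 9.63, 9.17 and 8.94 on dKO arrays, an 8.13-fold rise (log2 change 3.02 ± 0.24 SE, limma adjusted p = 0.0022). Of 45037 probe sets, 41 rose by more than 1424638_at. The rise stayed between 2.77 and 3.31 units with any 1 array left out at that probe set, and passed the threshold each time.

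Cdkn1b encodes p27, which holds Cdk2 complexes in check and is controlled largely by protein turnover. At 1419497_at the control arrays read 8.72, 8.92 and 8.99 and the dKO arrays 8.54, 8.56 and 8.39. The groups did not overlap, but the gap between them was 0.16 units. The log2 change was -0.38 (95% interval -0.71 to -0.05 before adjustment) and did not pass after adjustment over the array (limma adjusted p = 0.167). The second probe set, 1434045_at, had control values of 8.06, 8.21 and 8.44 and dKO values of 7.70, 7.79 and 8.21. Here the groups overlapped, with dKO replicate 3 level with control replicate 2 (log2 change -0.34, 95% interval -0.77 to 0.10, adjusted p = 0.352). A drop by as much as 2-fold lies outside both intervals.

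Cdkn1c encodes p57, the CIP member tied to stem cell quiescence and expressed from the maternal copy of an imprinted cluster. The control arrays read 6.52, 6.93 and 6.02 and the dKO arrays 6.08, 6.0 and 6.05. Control replicate 3 lay among the dKO values, so the groups overlapped, and the SD was 0.46 in control arrays against 0.04 in dKO arrays. The log2 change was -0.45 ± 0.23 (SE, 95% interval -0.99 to 0.09, limma adjusted p = 0.319). It ranged from -0.68 to -0.23 with 1 array left out, and passed in none of these fits. A rise of the size seen for Cdkn1a or Cdkn2d lies outside this interval.

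**Figure D2:**
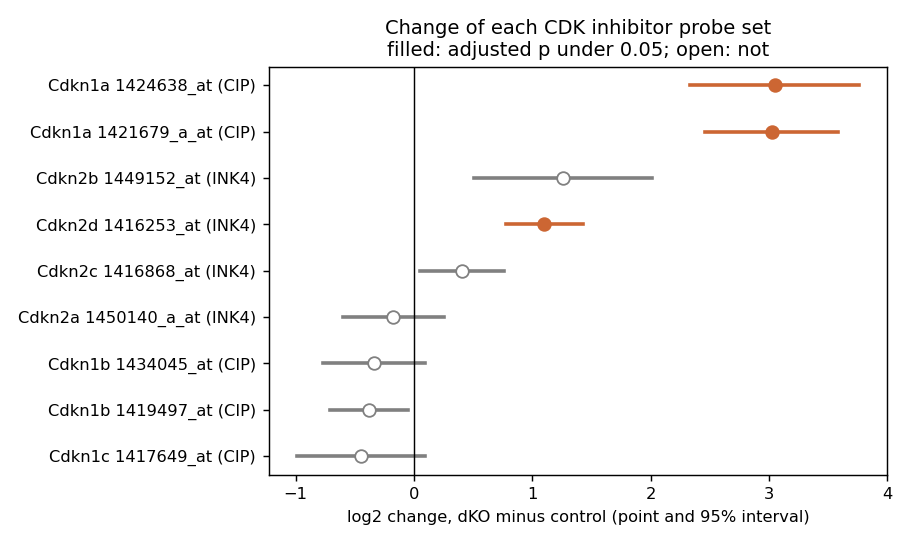
Log2 change (horizontal axis, dKO minus control) of the 9 CDK inhibitor probe sets, ordered by size; points are limma estimates, lines are 95% intervals before adjustment for multiple tests, and filled orange marks an adjusted p under 0.05. The Cdkn1a intervals, 2.33 to 3.76 and 2.46 to 3.59, lie above all others, those of Cdkn2b and Cdkn2d overlap, and the lowest 4 estimates lie below 0.

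The INK4 member Cdkn2d encodes p19Ink4d. Its only probe set, 1416253_at, read 7.26, 7.24 and 7.0 on control arrays and 8.36, 8.21 and 8.23 on dKO arrays. All 3 dKO arrays lay at least 0.96 units above the highest control, and the dKO values were close to each other. The means were 7.17 ± 0.14 and 8.27 ± 0.08 (SD, n = 3 per group), a 2.15-fold rise (95% interval 1.71 to 2.69, log2 change 1.10 ± 0.14 SE, limma adjusted p = 0.00706). With 1 array left out the change was 1.02 to 1.15 and passed each time.

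Cdkn2b encodes p15, an inhibitor of Cdk4 and Cdk6 induced by TGF-beta, and Myc is known to hold it down. The control arrays read 4.32, 4.49 and 4.64, and the dKO arrays 5.07, 5.73 and 6.41. Every dKO array was above every control array, but the dKO pools differed among themselves by more than the step from control to the lowest of them. The log2 change, 1.26 ± 0.32 (SE, 2.39-fold), was as large as that of Cdkn2d and did not pass (limma adjusted p = 0.0637). Without dKO replicate 1, the lowest dKO array, it was 1.59 and passed (adjusted p = 0.033), and without dKO replicate 3, the highest, it was 0.92 and did not (adjusted p = 0.101). With a trended robust prior it also passed (adjusted p = 0.0491), as it did in the fit over 1 mean value per gene, where fewer p-values are adjusted (adjusted p = 0.0384). It did not pass in the other alternatives that keep this probe set, where the adjusted p reached 0.157. The control level lay under every array median, where RMA compresses changes.

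Cdkn2c encodes p18, another inhibitor of Cdk4 and Cdk6 that is known to limit stem cell self-renewal. Control arrays read 7.55, 7.67 and 7.88 and dKO arrays 8.21, 7.96 and 8.14. The groups were apart by 0.08 units, and the log2 change of 0.41 (95% interval 0.05 to 0.76 before adjustment) did not pass (limma adjusted p = 0.172).

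Cdkn2a encodes p16Ink4a and, in another reading frame, Arf, which stabilises p53. Control arrays read 4.92, 4.43 and 4.91 and dKO arrays 4.68, 4.66 and 4.41. The groups overlapped, and both means, 4.76 and 4.58, lay under the array medians though above the negative controls (log2 change -0.18, 95% interval -0.60 to 0.25, limma adjusted p = 0.651). The annotation does not say which of its transcripts the probe set reads.

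With 3 arrays against 3, an exact two-sided permutation test cannot go below p = 0.1. It gave 0.1 for both Cdkn1a probe sets, Cdkn1b 1419497_at, Cdkn2b, Cdkn2c and Cdkn2d, 0.2 for Cdkn1b 1434045_at, and 0.3 for Cdkn1c and Cdkn2a.

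The chromosomal neighbours of the members were then read at 1 probe set per gene, the one with the highest mean over the 6 arrays. The nearest protein-coding genes on either side, by RefSeq order, were chosen after the member values were known. Beside Cdkn1a, the small GTPase gene Rab44 also rose. It read 5.94, 6.37 and 5.19 on control arrays and 8.71, 8.39 and 8.04 on dKO arrays, a 5.85-fold rise (log2 change 2.55 ± 0.32 SE, limma adjusted p = 0.00706). It passed with any 1 array left out. Srsf3, the splicing factor gene on the other side of Cdkn1a, changed by 0.27 and did not pass (adjusted p = 0.301). None of the nearest neighbours of the other members passed. Mtap beside Cdkn2a had a log2 change of -0.54 (adjusted p = 0.0919) and Dmrta1 beside Cdkn2b one of 0.43 (adjusted p = 0.231). Cdkn2a and Cdkn2b are themselves neighbours, with changes of -0.18 and 1.26. Kri1 and Ap1m2 beside Cdkn2d changed by 0.21 and 0.09 and did not pass. Dmrta1 and Ap1m2 lay within the negative control range on all 6 arrays, and 4930522H14Rik beside Cdkn2c on 5. These probe sets cannot show whether those neighbours stayed unchanged.

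**Figure D3:**
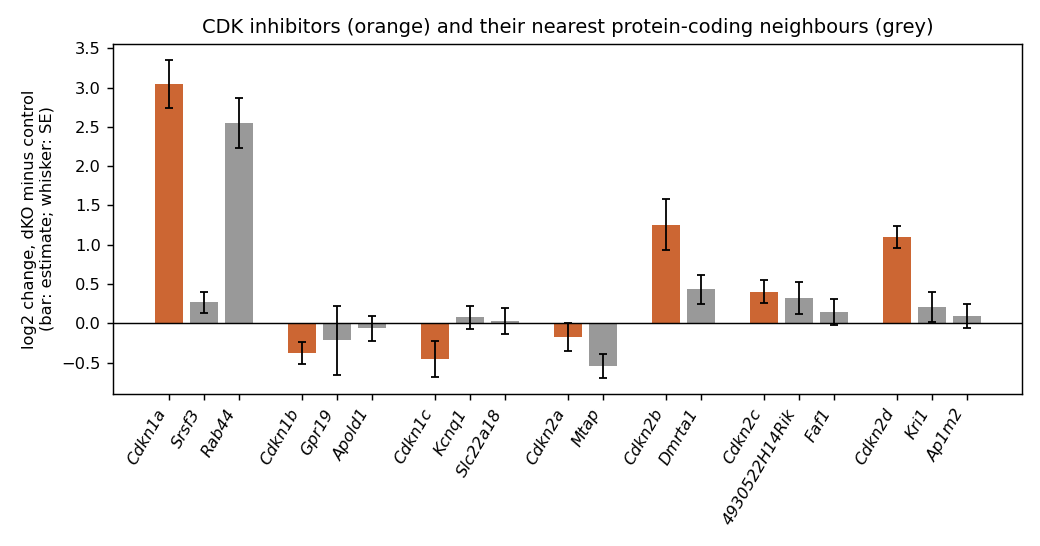
Log2 change (vertical axis, dKO minus control) of 1 probe set for each CDK inhibitor (orange) and for its nearest protein-coding neighbours (grey), with the limma SE as whiskers. Rab44, at 2.55, is the grey bar that stands out, beside Cdkn1a. The neighbours of Cdkn2d stay at 0.21 or less, but Ap1m2, like Dmrta1, lay within the negative control range on every array.

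Cdkn1c lies in an imprinted cluster with the long non-coding RNA Kcnq1ot1, which is known to silence genes of the cluster on the paternal copy. Kcnq1ot1 fell, from 10.02 ± 0.04 to 8.77 ± 0.17 (SD, n = 3 per group) at its brightest probe set (log2 change -1.25 ± 0.14 SE, limma adjusted p = 0.00524). Of its other 5 probe sets, 4 also fell past the threshold, by 1.13 to 1.62 units. Of 12 measured genes listed as imprinted neighbours of Cdkn1c, not all of them known to be silenced by Kcnq1ot1, 2 fell and 1 rose. Their median was 0.04 against 0.0052 over all 18193 genes, of which 3.56% fell and 4.49% rose. The others that passed were Tspan32, a tetraspanin (-0.87, adjusted p = 0.0259), and Tssc4 (0.65, adjusted p = 0.0402). The Tspan32 call was lost in every leave-out except that of dKO replicate 3 (adjusted p up to 0.0855), and the Tssc4 call with any 1 array left out (up to 0.115). Kcnq1 and Slc22a18, the protein-coding genes next to Cdkn1c, changed by 0.08 and 0.03. Igf2, the growth factor, had a change of 0.58 (adjusted p = 0.203). Cd81 had one of -0.50 (adjusted p = 0.0701), with every dKO array below every control array. It passed in the fit over 1 mean value per gene (adjusted p = 0.0331), which holds the same values of its only probe set and adjusts fewer p-values.

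The genes whose pattern over the 6 arrays was nearest to that of a risen member were found by the root-mean-square difference of values centred on each gene's mean, over 1 probe set per gene. For Cdkn1a these were Mrvi1 (0.22 log2 units), Cep85 (0.23) and Gsn, the actin-severing protein gelsolin (0.29). Mrvi1 read 6.81, 6.10 and 5.57 on control arrays and 9.21, 8.56 and 8.63 on dKO arrays. For Cdkn2d they were BC031181 (0.04), Chsy1, a chondroitin synthase (0.04), and Cox5a, a cytochrome oxidase subunit (0.06).

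The targets of the inhibitors, the cyclins and CDKs of G1 and S phase, were read at 1 probe set per gene. Of 14, 3 were called higher and 0 lower by limma, against 4.49% and 3.56% of all genes, with a median log2 change of 0.50. At an unadjusted p under 0.05 the counts were 6 and 0, against 12.3% and 10.8% of all genes. The 3 calls were at D cyclins, which activate Cdk4 and Cdk6, but the probe sets of Ccnd3 disagreed, so a rise is given for Ccnd1 and Ccnd2 alone. Ccnd1 rose from 6.91 ± 0.25 to 8.81 ± 0.15 (SD, n = 3 per group, log2 change 1.91 ± 0.17 SE, limma adjusted p = 0.00272), and its other 2 probe sets rose as well, by 1.73 and 2.25. Ccnd2 rose by 0.91 ± 0.14 (adjusted p = 0.0129), with 6 of its 7 probe sets past the threshold, though the probe set named here was not called without dKO replicate 1 (adjusted p = 0.0518). Ccnd3 depended on the probe set: 1415907_at rose by 1.72, 1438805_at fell by 2.21 and 1444323_at, with a change of 0.91, did not pass. The mean of its probe sets changed by 0.14 (adjusted p = 0.699). The kinases they bind, Cdk4 and Cdk6, changed by -0.09 (adjusted p = 0.837) and 0.49 (adjusted p = 0.0988). Cdk2, the main target of p21, had a change of 0.69 (adjusted p = 0.0776), and the E cyclin Ccne1 one of 0.70 (adjusted p = 0.0649). The other Ccne1 probe set rose by 0.91 (adjusted p = 0.044), as did the mean of both, by 0.81 (adjusted p = 0.0198).

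Downstream of these kinases, 2 of 13 retinoblastoma and E2F genes rose and 1 fell, against 4.49% and 3.56% of all genes. The median was 0.22, and 5 and 1 had an unadjusted p under 0.05, against 12.3% and 10.8%. The atypical repressor E2f8 rose from 8.44 ± 0.31 to 9.77 ± 0.06 (SD, n = 3 per group, log2 change 1.33 ± 0.18 SE, limma adjusted p = 0.00908), and its second probe set rose by 1.34. Rb1, the retinoblastoma protein itself, rose by 0.89 (adjusted p = 0.0246), a call lost in every leave-out except that of control replicate 3 (up to 0.0841), while its other probe set changed by -0.24. The E2F partner Tfdp2 fell by 0.91 (adjusted p = 0.0186), a call lost on leaving out dKO replicate 1 or 2 or control replicate 1 or 3 (up to 0.0654). Rbl1, or p107, had a change of 0.75 (adjusted p = 0.0539).

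Of 19 genes that E2F factors switch on in S phase, 5 rose and 0 fell by limma, against 4.49% and 3.56% of all genes. The median was 0.58, and 12 and 0 had an unadjusted p under 0.05, against 12.3% and 10.8%. On every dKO array 13 were higher than on any control array, as were 15.8% of all genes. Rrm2, a subunit of ribonucleotide reductase, rose by 1.28 ± 0.13 (SE, log2, limma adjusted p = 0.00383) and passed in all 6 leave-outs. The others were Mcm2, Mcm5, Pcna and Fen1, at 0.60 to 1.12 units. With 1 array left out the count was 1 without control replicate 2 or any dKO replicate, and at most 4. With all arrays kept, the count was 1 with the replicate block, 4 with quantile normalization and 6 with array weights. It was 8 with each array centred on its median and 9 with the filter on level, the trended robust prior or gene means. Of 19 mitosis genes, 0 rose and 0 fell by limma, 0 had an unadjusted p under 0.05, and the median was 0.0051. Those with the smallest p were Cenpf (-0.30), Kif11 (-0.26), Birc5 (0.33) and Bub1b (-0.31), at limma adjusted p of 0.349 to 0.474.

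**Figure D4:**
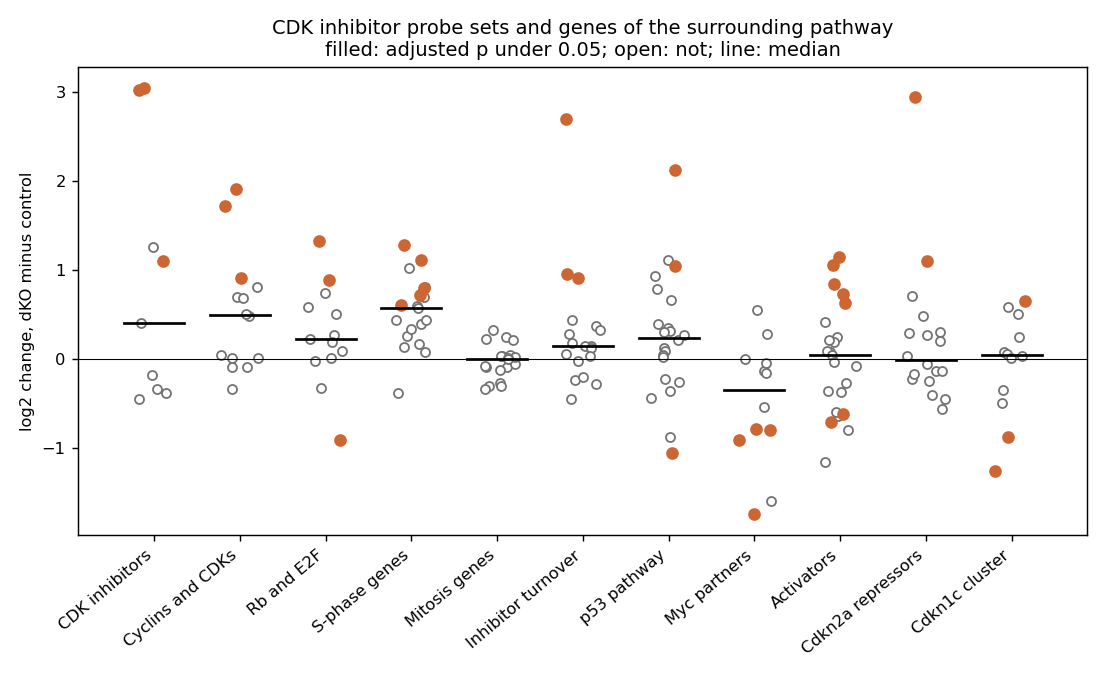
Log2 change (vertical axis, dKO minus control) of the 9 CDK inhibitor probe sets and of genes in 10 surrounding lists at 1 probe set per gene; filled orange points have an adjusted p under 0.05, open points do not, black lines are medians, and horizontal scatter within a column has no meaning. Medians are 0.41 for the inhibitors, 0.58 for S-phase genes, 0.0051 for mitosis genes and -0.34 for Myc partners.

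Of 18 genes that degrade, move or phosphorylate the inhibitor proteins, 3 rose and 0 fell by limma, against 4.49% and 3.56% of all genes. The median was 0.15, and 3 and 1 had an unadjusted p under 0.05, against 12.3% and 10.8%. Pim2 and Pim1 encode kinases that phosphorylate p21 and p27. Pim2 read 7.67 ± 0.37 in control and 10.4 ± 0.07 in dKO cells (SD, n = 3 per group), a rise of 2.69 ± 0.20 (SE, log2, limma adjusted p = 0.00171), and Pim1 rose by 0.91 ± 0.13 (adjusted p = 0.00966). Rnf123, a ubiquitin ligase for p27, rose by 0.96 (adjusted p = 0.0198) and lost its call in every leave-out except that of control replicate 1 (up to 0.0619). Skp2 and Cks1b, which together hand p27 to the SCF ubiquitin ligase, changed by 0.18 and 0.14 and did not pass. Cks2 changed by -0.45 and did not pass (adjusted p = 0.106), with every dKO array below every control array. The mean of the Cks2 probe sets passed (-0.51, adjusted p = 0.0343).

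The p53 pathway was read because Cdkn1a is its best-known target. Of 22 measured genes other than Cdkn1a, 2 rose and 1 fell, against 4.49% and 3.56% of all genes. The median was 0.24, and 5 and 2 had an unadjusted p under 0.05, against 12.3% and 10.8%. Pmaip1, which encodes the death protein Noxa, read 4.26 ± 0.61 and 6.38 ± 0.76 (SD, n = 3 per group, log2 change 2.12 ± 0.44 SE, limma adjusted p = 0.0329), and the antiproliferative gene Btg2 rose by 1.05 (adjusted p = 0.0242). Sesn1, a stress-response sestrin, fell by 1.05 ± 0.12 (adjusted p = 0.006). The Pmaip1 call was lost in every leave-out except that of dKO replicate 3 (adjusted p up to 0.102) and the Btg2 call on leaving out dKO replicate 1 or 3 or control replicate 1 or 2 (up to 0.0794), whereas Sesn1 passed in all 6. Sesn2, Apaf1 and Plk2 had changes of 0.66, 0.79 and 1.11, with every dKO array above every control array, and did not pass (adjusted p = 0.101, 0.111 and 0.113). Trp53inp1 went the other way, with every dKO array below every control array, and did not pass (-0.87, adjusted p = 0.0712). Its second probe set changed by -0.82 (adjusted p = 0.142). Other well-known targets did not pass either: Mdm2 changed by 0.32 (adjusted p = 0.502), Ccng1 by 0.21 (0.672), Phlda3 by 0.31 (0.696) and Bbc3, which encodes Puma, by 0.02 (0.966). Trp53 and Bax were not analysed here.

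Among 12 partners and antagonists of Myc that act at inhibitor promoters, 0 rose and 4 fell by limma, against 4.49% and 3.56% of all genes. The median was -0.34, and 1 and 6 had an unadjusted p under 0.05, against 12.3% and 10.8%. Tfap4, a Myc-induced repressor of Cdkn1a, fell from 6.58 ± 0.24 to 4.84 ± 0.20 (SD, n = 3 per group, log2 change -1.74 ± 0.18 SE, limma adjusted p = 0.00396). The other 3 were the Max-binding repressors Mxd4, Mga and Mxi1. Mxi1 fell at both of its probe sets. For both Mxd4 and Mga, only the brightest probe set passed. The other Mga probe sets were lower as well, with changes of -0.37 to -1.23, and the mean over the Mga probe sets passed (-0.74, adjusted p = 0.00945). For Mxd4 the other 3 changed by -0.02, -0.12 and -0.36, and the mean over its probe sets did not pass (adjusted p = 0.143). With 1 array left out the count of falls was 1 (without dKO replicate 2) to 3. Zbtb17, the gene of Miz1, had a change of -0.0034 (adjusted p = 0.993).

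Over 23 TGF-beta, FoxO and other activators of inhibitor genes the median was 0.04. At an unadjusted p under 0.05, 5 were higher and 6 lower, against 12.3% and 10.8% of all genes. After adjustment 5 rose and 2 fell, against 4.49% and 3.56%. The split depended on the scaling and the fit: it was 4 and 5 with quantile normalization, 5 and 1 with each array centred on its median, 5 and 6 with the filter on level and 5 and 5 with the trended robust prior. Tgfb1, whose product induces Cdkn2b, rose by 1.15 ± 0.15 (SE, log2, limma adjusted p = 0.00802) and passed in all 6 leave-outs, although its second probe set changed by 0.11. The mean of its probe sets did not pass (0.63, adjusted p = 0.071). Of other TGF-beta genes, Tgfbr2 rose (limma adjusted p = 0.0324) and Smad4 fell (0.0475). The Tgfbr2 call was lost in every leave-out except that of dKO replicate 3, and the Smad4 call with any 1 array left out. Hes1, a Notch target, rose by 0.84 (adjusted p = 0.0189), and the interferon-induced factor Irf1 by 0.74 (adjusted p = 0.0275). Foxo3, which activates Cdkn1b, fell by 0.71 (adjusted p = 0.0211), and all 3 of its probe sets fell. The calls of Irf1 and Foxo3 were lost with any 1 array left out (up to 0.0895 and 0.0721), and that of Hes1 in every leave-out except that of dKO replicate 2 (up to 0.0673). With 1 array left out, 1 to 2 activators rose and 0 to 1 fell, against 5 and 2; 1 rose without any of the 3 control replicates or dKO replicate 1, and 0 fell without any of the 3 control replicates or dKO replicate 1 or 3.

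Over 18 repressors of the Cdkn2a and Cdkn2b locus the median was -0.0059. At an unadjusted p under 0.05, 4 were higher and 1 lower, against 12.3% and 10.8% of all genes. By limma after adjustment 2 rose and 0 fell, against 4.49% and 3.56%. Both encode Id proteins, which block the Ets and E-protein factors. Id2 rose from 5.41 ± 0.25 to 8.36 ± 0.15 (SD, n = 3 per group, log2 change 2.94 ± 0.17 SE, limma adjusted p = 7.94e-04), and its other 2 probe sets rose too. Id1 rose by 1.10 (adjusted p = 0.0115), and both passed in all 6 leave-outs. Cbx7 changed by -0.56 (adjusted p = 0.0564) and Tbx2 by 0.71 (adjusted p = 0.0669), the latter within the negative control range in both groups. The Polycomb genes Bmi1 and Ezh2, which hold the locus silent in stem cells, changed by 0.48 (adjusted p = 0.22) and 0.31 (adjusted p = 0.28).

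Markers of the sort and of other cells were read beside these results. Over all genes, 4.49% were called higher and 3.56% lower by limma, and 12.3% and 10.8% at an unadjusted p under 0.05. Of 14 LT-HSC genes, 5 fell and 2 rose, and the list mean read 9.54 to 9.67 on control and 8.95 to 9.28 on dKO arrays. Those that fell were Tek (-2.25, limma adjusted p = 0.0022), Esam (0.00866), Kit (0.0101), Hlf (0.0178) and Mllt3 (0.0236). Without Tek the list read 9.59 to 9.73 against 9.16 to 9.48. Gata2 rose (adjusted p = 0.0363), as did Cd48, whose product the sort excluded. Cd48 rose by 1.16 (adjusted p = 0.0214), a call lost in every leave-out except that of dKO replicate 3 (up to 0.0765). Slamf1, which encodes CD150, changed by 0.08 (adjusted p = 0.855). Ly6a, the gene of Sca1, was not analysed here. Megakaryocyte markers had 3 of 10 higher and 1 lower (median 0.16), with a mean level over the list of 7.16 to 7.36 on control and 7.82 to 8.14 on dKO arrays. Most of that step came from Ppbp, a platelet chemokine, which rose by 5.67, and without it the list read 7.36 to 7.52 against 7.42 to 7.71, so the groups overlapped. Itga2b and Pf4 rose by 1.16 and 1.11, and Vwf fell by 1.04. Mast cell and basophil markers had 2 of 7 higher (median 1.17), at 4.56 to 4.92 against 6.30 to 6.84. Gzmb, the granzyme gene of cytotoxic and mast cells, rose by 7.17 and made up 59.4% of the summed change, and without it the list read 4.41 to 4.85 against 5.22 to 5.89. Macrophage markers had 2 of 10 higher (median 0.09), C1qb and Mrc1, at 5.32 to 5.49 against 5.66 to 5.87. Mrc1 made up 50% of the summed change, and without it the list read 5.47 to 5.68 against 5.72 to 5.80. Other calls lost with 1 array left out were Gata2 (in all 6 fits), Fcer1a, Mrc1, Pf4, Mllt3 and the erythroid marker Tfrc (in 5 of 6 fits each), C1qb (4) and Vwf (3). Hlf was lost without control replicate 1 or 3. Of 10 T and NK cell, 7 B cell and 11 granulocyte markers 0 passed by limma (1, 1 and 2 at an unadjusted p under 0.05), and 2 of 6 erythroid markers fell. Gp6, Ncr1, Ms4a1, Blnk, Lcn2, Mmp8 and Hba-a1 had both group means within the negative control range. Ppbp, Gzmb and Itga2b, whose calls held in all 6 leave-outs, were higher on every dKO array, as Cdkn1a and Cdkn2d were, and the part of other cell types in those rises was not tested.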

How the data were processed

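Gene expression was measured in LT-HSCs on 6 arrays. The deposited values are log2 expression values that the authors made with RMA, per the submitters' processing notes. The RMA version is not given in the sources used here. Values run from 1.49 to 13.8, from which the log2 scale was taken. RMA scales arrays to each other, so changes are relative, and it compresses changes of dim probe sets. The labels' protocols name 2 rounds of amplification, which can distort differences.

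Groups and replicate numbers came from the titles, and no batch is named in them. Probe sets were named by the platform annotation: 34945 had 1 gene, 932 several and 9160 none. All but 64 control probe sets were fitted with limma's lmFit and eBayes (limma 3.58.1, R 4.3.3; 4 residual and 3.19 prior degrees of freedom), Benjamini-Hochberg adjusted over 45037, threshold 0.05, and the fit was checked on simulated data. Pathway and marker lists (18, with 261 entries) used the probe set with the highest mean per gene, and Skp1a was read as Skp1. Named are all members, Myc, Mycn, the 4 members of each pathway list with the smallest p, the 3 genes nearest in pattern, sort markers, and others chosen after their values were seen. The members and lists were chosen with earlier results of these data known. Each array is a pool of its own, so p-values measure the spread between pools, and the number of arrays limits the precision. Alternatives were other scalings, a filter on level, other priors and weights, a replicate term, gene means and leaving out each array.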

Additional observations from a re-analysis of the deposited data

How the results depend on the processing

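The calls of both Cdkn1a probe sets and of Cdkn2d held in all 12 alternatives run on probe sets, with log2 changes of 2.77 to 3.31 (1424638_at), 2.83 to 3.18 (1421679_a_at) and 1.02 to 1.16. Over the members, Myc and Mycn, 151 of 153 values kept their side of the threshold and none reversed a call; the 2 others were Cdkn2b, which passed with the trended robust prior (adjusted p = 0.0491) and without dKO replicate 1 (0.033). The filter on level left out Cdkn2b and Cdkn2a. The count of called probe sets, 3146 with all arrays, was 1530 with the replicate block and 1338 to 1674 with 1 array left out. The block is not supported as a pairing: same-numbered arrays' deviations correlated at -0.02, 0.0024 and 0.01, and with it the CDK inhibitor counts stayed 3 higher and 0 lower. Of 120 pathway list counts with 1 array left out, 47 were smaller by more than 1.5 times and 1 larger; with the block, 8 of 20 were smaller. Of 20 counts each, 6 were larger with the filter on level, 5 with the trended robust prior, 4 with gene means, 2 with median centring and 1 with quantile normalization, and 1 was smaller with the filter, with gene means and with centring. Probe sets near the negative controls (up to 3.92) give only bounds.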
